A study of Mus musculus with 10 samples.

Results

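The cyclin-dependent kinase (CDK) inhibitors were examined as the 8 genes of the table that carry the symbols *Cdkn1a*, *Cdkn1b*, *Cdkn1c*, *Cdkn2a*, *Cdkn2b*, *Cdkn2c*, *Cdkn2d* and *Cdkn3*, out of 20974 genes in all. They were chosen by name. The first 3 form the CIP/KIP family and the next 4 the INK4 family. *Cdkn3* encodes a phosphatase that acts on CDK2 and belongs to neither. CDKs joined to their cyclins drive cells through the division cycle, and the inhibitors bind these kinases to slow or stop it. CIP/KIP proteins act on many cyclin-CDK complexes, above all those of CDK2, whereas INK4 proteins bind only CDK4 and CDK6 and keep the D-type cyclins off them, so that the retinoblastoma protein stays active and E2F factors are held in check. The gastrulating mouse epiblast is known for very fast cell cycles, and *Cdkn1c* for its role in placental cells that leave the cycle.

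RNA was sequenced from single mouse embryos at embryonic day 7.5 (E7.5), during gastrulation, with 5 *Rreb1*-/- and 5 *Rreb1*+/+ embryos, each its own library (replicates 2 to 6 in each genotype). *Rreb1* encodes a zinc finger protein that binds DNA and responds to Ras signals. The mutant embryos were homozygous for a CRISPR deletion in exon 6, made with either of 2 pairs of guides, and came like the wild types from crosses of heterozygous mice. The strain is labelled CD1, and by the study's methods the line was crossed out to CD1 and kept on a mixed background. The parietal endoderm, an extraembryonic layer, had been dissected off for genotyping, and the mutant embryos of this line are described as small and delayed. The deposited values are reads per gene divided by a size factor for each embryo and are called normalized counts. Genes whose mean reached 15 in at least 1 genotype entered a limma fit on log2(normalized count + 1) and were called at a Benjamini-Hochberg adjusted p under 0.05. This left 15603 genes, and all 8 inhibitor genes were among them. Fold changes are given as the log2 of *Rreb1*-/- over *Rreb1*+/+.

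The libraries held 31467767 to 35446574 counted reads in *Rreb1*-/- embryos and 33317560 to 35786876 in *Rreb1*+/+ embryos. *Rreb1* itself was higher in the mutants, with 5010 ± 718 normalized counts against 2644 ± 211 in wild types (SD, n = 5 each). Its gene-level count includes exons outside the deletion and so does not check the genotype. On the first principal component of all tested genes (37.0% of the variance), replicates 5 and 6 of both genotypes lay between 27.8 and 48.2, and replicates 2 to 4 lay from −47.5 to −43.7 in *Rreb1*-/- and from −6.77 to −3.64 in *Rreb1*+/+ embryos. *Xist*, the RNA of the inactive X chromosome, stood at 58036 in mutant replicate 2, at 39.3 to 61.3 in the other mutants, and at 45657 to 68009 in the wild types, and genes of the Y chromosome showed the reverse, so that sex and genotype were nearly confounded. Every marker list used to check the "whole embryo" label was detected. *Prl8a2* and *Esr1* of maternal decidua and *Tpbpa* of the ectoplacental cone were the only markers below the filter. In bulk RNA, fewer cells of a type and less RNA per cell cannot be told apart.

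One inhibitor gene, *Cdkn2a*, was higher in *Rreb1*-/- embryos, and no inhibitor gene was lower. Over all tested genes 3.11% were called higher and 1.15% lower. The median log2 fold change of the 8 genes was 0.12, against −0.02 over all tested genes. By family, 0 of 3 CIP/KIP and 1 of 4 INK4 genes were called, with median log2 fold changes of −0.19 and 0.12. *Cdkn1a* was the member farthest below 0, at a log2 fold change of −0.47 that did not pass the test.

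**Figure D1:**
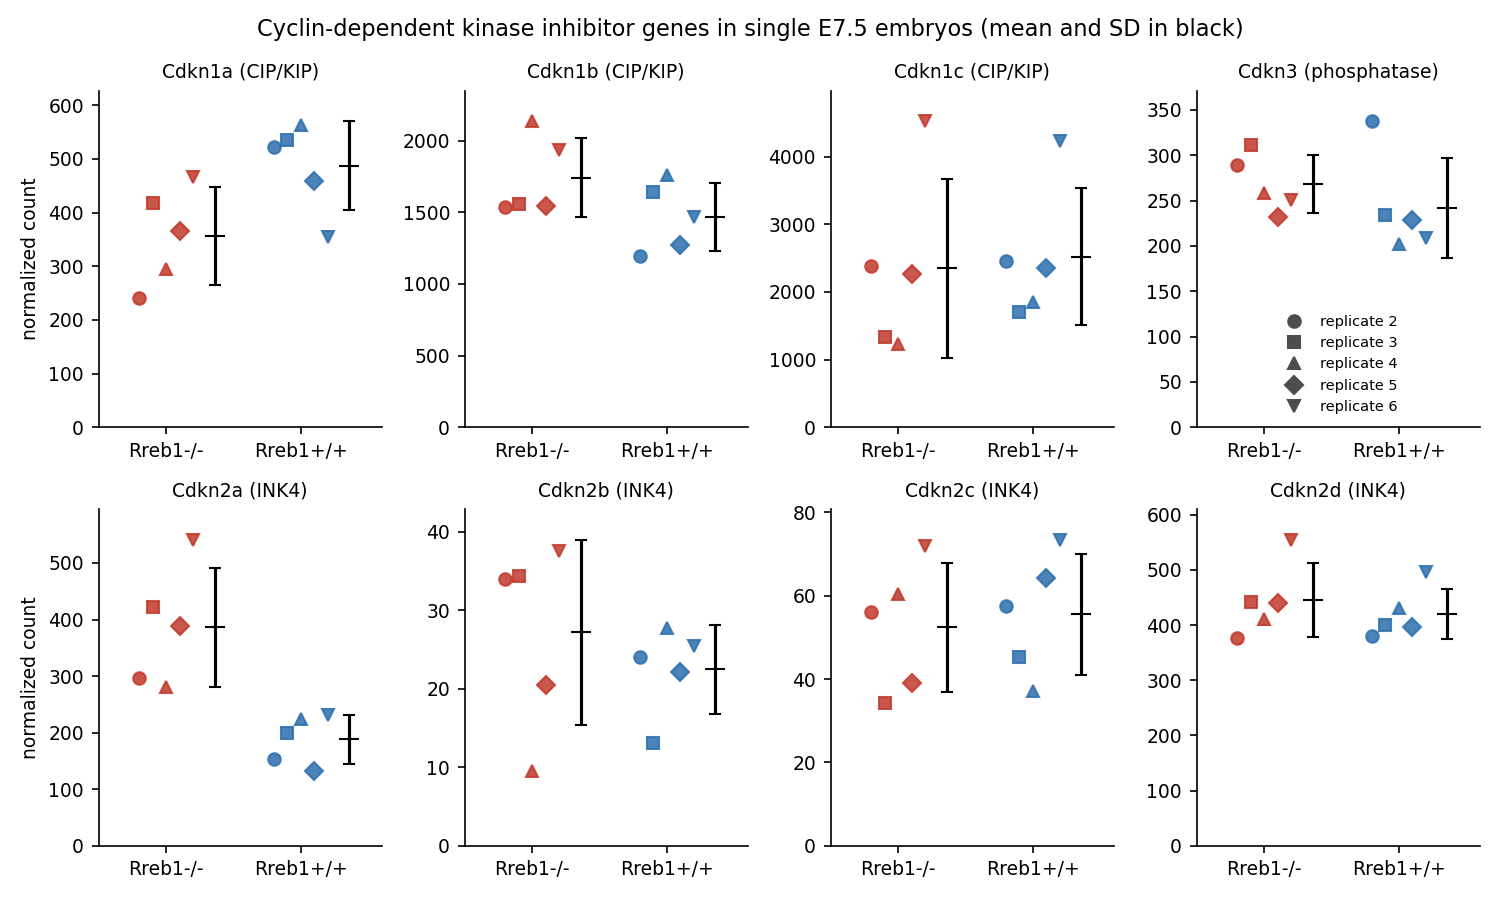
Normalized counts (y axes, starting at 0) of the 8 inhibitor genes in single E7.5 embryos, with *Rreb1*-/- in red on the left and *Rreb1*+/+ in blue on the right of each panel; marker shapes give the replicate number and the black bars the mean ± SD of 5 embryos. *Cdkn2a* is the panel in which the genotypes do not overlap (281 to 541 in *Rreb1*-/- against 133 to 232 in *Rreb1*+/+ embryos).

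*Cdkn2a* (ENSMUSG00000044303) lies on the minus strand of chromosome 4 at 89274471 to 89294653 (GRCm38, GENCODE M21). It makes 2 unrelated proteins from transcripts with different first exons. The transcript from the distal start begins with an exon at 89294334 to 89294653 and encodes p19Arf, which holds back Mdm2 and so stabilises p53. The one from the proximal start begins with an exon at 89281986 to 89282192 and encodes the INK4 protein p16Ink4a. Both go on with the same exon 2 at 89276645 to 89276985 in different reading frames. The deposited count is the sum over the gene, so the reads of the 2 transcripts cannot be told apart here. The RefSeq sequences around both starts (GRCm38.p6, 250 bases before to 50 after, 5′ to 3′ on the minus strand) are shown because a change of the summed count could come from either of them. Capitals mark the letters TTTNNCGC, a form of the E2F site, on either strand.

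Cdkn2a, Arf start, chr4:89294570-89294869, minus strand: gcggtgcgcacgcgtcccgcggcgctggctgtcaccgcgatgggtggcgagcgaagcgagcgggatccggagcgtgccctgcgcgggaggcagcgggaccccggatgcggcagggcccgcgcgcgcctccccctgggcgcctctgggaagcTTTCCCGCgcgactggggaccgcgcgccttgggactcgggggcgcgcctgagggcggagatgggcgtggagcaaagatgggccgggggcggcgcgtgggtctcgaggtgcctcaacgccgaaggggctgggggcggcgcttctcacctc

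Cdkn2a, Ink4a start, chr4:89282143-89282442, minus strand: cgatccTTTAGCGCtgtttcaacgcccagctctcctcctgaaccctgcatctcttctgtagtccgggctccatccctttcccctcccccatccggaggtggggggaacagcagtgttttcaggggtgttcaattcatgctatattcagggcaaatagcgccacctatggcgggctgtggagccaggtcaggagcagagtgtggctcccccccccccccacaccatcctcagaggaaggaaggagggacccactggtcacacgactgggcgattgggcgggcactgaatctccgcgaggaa

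The Arf window holds the motif once, beginning 99 bases before the start, and the Ink4a window holds it once, beginning 244 bases before the start. Of 32851 RefSeq promoter windows of the same length, 5.17% hold it. It was in no window of *Cdkn1a*, *Cdkn1b*, *Cdkn2b*, *Cdkn2c*, *Cdkn2d* or *Cdkn3*. RefSeq windows were at hand for 7 of the 8 genes, 10 windows in all.

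*Cdkn2a* had 297, 422, 281, 388 and 541 normalized counts in *Rreb1*-/- replicates 2 to 6, against 154, 199, 223, 133 and 232 in *Rreb1*+/+ replicates 2 to 6. Every mutant embryo stood above every wild-type embryo, which held for 4.24% of all tested genes. The means were 386 ± 105 in mutants and 188 ± 43.4 in wild types (SD, n = 5 each). The log2 fold change was 1.02 (SE 0.21, 95% interval 0.56 to 1.49), or 2.03-fold, with a limma adjusted p of 0.0193. By exact permutation of the embryos (two-sided, 252 arrangements) p was 0.00794, the smallest possible value. The counts rested on 265 to 519 reads per mutant and 138 to 246 reads per wild-type embryo.

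Between embryos of the same replicate number, *Cdkn2a* was higher in the mutant in 5 of 5 pairs. Any pairing gives this, since the genotypes did not overlap. The ratio was 1.93, 2.12, 1.26, 2.93 and 2.34 for replicates 2 to 6. The narrowest pair was replicate 4, where the mutant embryo was the lowest of its genotype and the wild type the second highest of its own. The ratio of the means was 1.74 within replicates 2 to 4 and 2.55 within replicates 5 and 6. Fitted with limma on those embryos alone the gene was not called (adjusted p = 0.0963 with 3 embryos and 0.144 with 2 embryos per genotype), in fits that called 2.18% and 0.529% of genes higher. Mutant replicate 2, which was *Xist*-high like all wild types, had 297 normalized counts, above the 133 to 232 of the *Rreb1*+/+ embryos. Adding a covariate for Y-linked expression gave a log2 fold change of 0.72 and a limma adjusted p of 0.315, in a fit that called 0.532% of genes higher. With 1 *Xist*-high mutant and no Y-positive wild type, sex and genotype cannot be fully told apart.

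**Figure D2:**
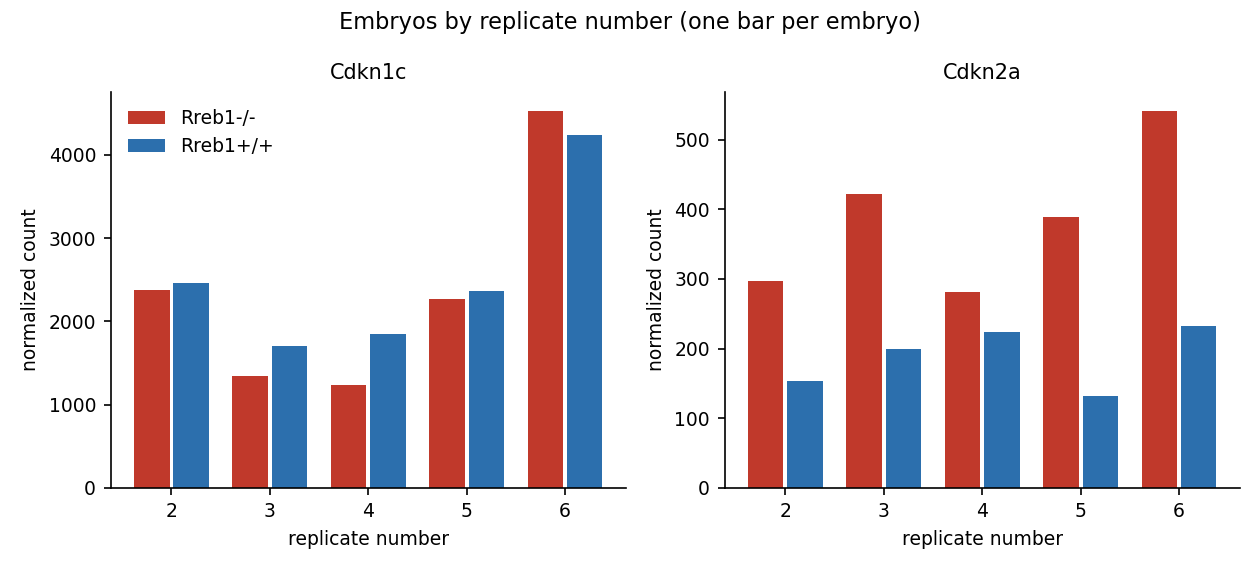
Normalized counts of *Cdkn1c* (left) and *Cdkn2a* (right), y axes from 0, for the embryos of each replicate number (x axis), one bar per embryo, *Rreb1*-/- in red left of *Rreb1*+/+ in blue. *Cdkn2a* is higher in the mutant at every number, as follows from genotypes that do not overlap. *Cdkn1c* has its highest value at replicate 6 in both genotypes (4527 and 4235).

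The neighbours of *Cdkn2a* on chromosome 4 were not called. *Cdkn2b*, the next gene on the same strand (89306299 to 89311039), encodes p15Ink4b, an INK4 protein induced by TGF-beta in cultured epithelial cells. It had 33.9, 34.3, 9.56, 20.4 and 37.6 normalized counts in *Rreb1*-/- embryos and 24.0, 13.1, 27.7, 22.1 and 25.4 in *Rreb1*+/+ embryos. The genotypes overlapped throughout. Its log2 fold change was 0.16 (SE 0.37, 95% interval −0.65 to 0.98, limma adjusted p = 0.865). That interval overlaps the one of *Cdkn2a* (0.56 to 1.49), and a difference between the 2 genes was not tested. The counts rested on 9 to 36 reads per mutant and 13 to 29 reads per wild-type embryo. *Mtap*, a housekeeping enzyme of methionine salvage on the other side, averaged 5872 ± 383 in mutants and 6193 ± 670 in wild types (SD, n = 5 each), with a log2 fold change of −0.07 and a limma adjusted p of 0.668. *Dmrta1*, a transcription factor gene beyond *Cdkn2b*, averaged 71.7 ± 33.8 in mutants and 69.7 ± 18.7 in wild types (limma adjusted p = 0.941).

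*Cdkn2c* and *Cdkn2d* encode p18Ink4c and p19Ink4d, which bind CDK4 and CDK6 as the other INK4 proteins do. *Cdkn2c* had 56.2, 34.3, 60.5, 39.0 and 72.0 normalized counts in *Rreb1*-/- embryos and 57.6, 45.2, 37.2, 64.3 and 73.5 in *Rreb1*+/+ embryos. Replicate 6 was the highest in both genotypes. The log2 fold change was −0.09 (SE 0.26, 95% interval −0.66 to 0.47, limma adjusted p = 0.887). *Cdkn2d* had the smallest SE of its log2 fold change among the INK4 genes (0.12), with 377, 443, 411, 440 and 555 normalized counts in *Rreb1*-/- and 380, 400, 431, 397 and 495 in *Rreb1*+/+ embryos. Replicate 6 was again the highest in both. Its log2 fold change was 0.08 (95% interval −0.18 to 0.33, limma adjusted p = 0.782).

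**Figure D3:**
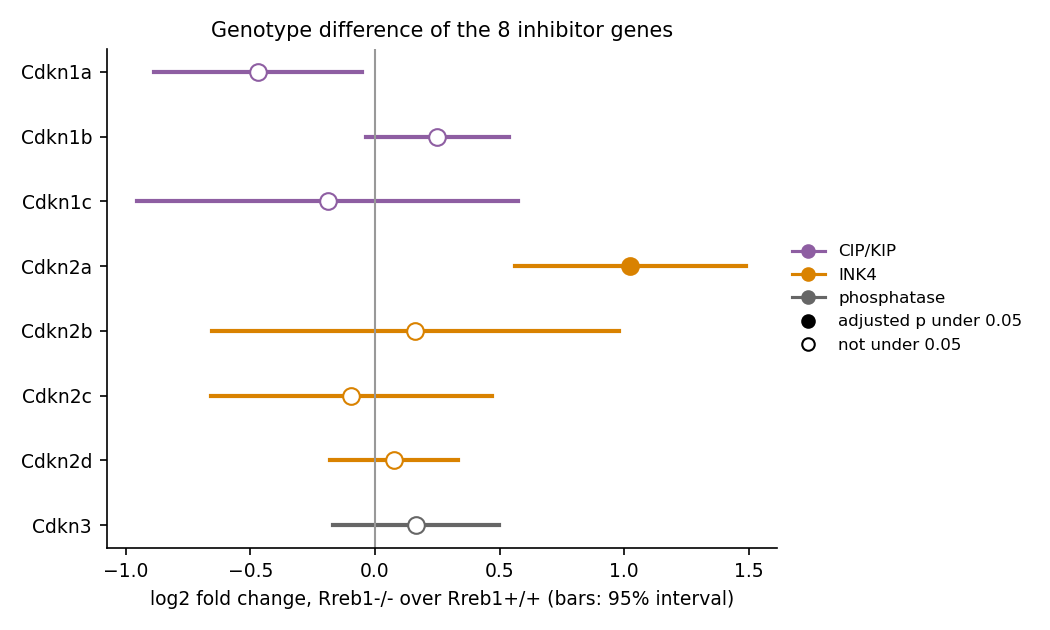
Log2 fold change of each inhibitor gene, *Rreb1*-/- over *Rreb1*+/+ (x axis), from limma on 5 embryos per genotype, with bars for the 95% interval; purple is CIP/KIP, orange INK4, grey the phosphatase gene, and a filled point marks an adjusted p under 0.05. *Cdkn2a* alone is filled at 1.02, and *Cdkn1a* is farthest to the left at −0.47.

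*Cdkn1a* encodes p21Cip1, the inhibitor best known as a p53 target. It had 241, 418, 294, 365 and 467 normalized counts in *Rreb1*-/- replicates 2 to 6, against 522, 536, 564, 459 and 355 in *Rreb1*+/+ replicates 2 to 6. The mutants were lower at replicates 2 to 5 and higher at replicate 6, and none of them exceeded the wild-type median of 522. The means were 357 ± 91.4 in mutants and 487 ± 83.3 in wild types (SD, n = 5 each). The log2 fold change was −0.47 (SE 0.19, 95% interval −0.89 to −0.05), with a limma adjusted p of 0.222 over all genes and p = 0.0714 by exact two-sided permutation. The ratio of the means was 0.587 within replicates 2 to 4 and 1.02 within replicates 5 and 6. That difference between the sets was not tested. Adding the covariate for Y-linked expression gave a log2 fold change of −1.05, again not called (limma adjusted p = 0.126).

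*Cdkn1a* lies on chromosome 17 at 29090976 to 29100727, plus strand (GRCm38), where an annotated transcript of the opposite strand overlaps it. Since it is not given whether the counting used strand, reads from the 2 cannot be told apart. The upstream of its 2 RefSeq starts is shown because it carries the pair of p53 half-sites for which the gene is known. Capitals mark 20 bases with 2 copies of the core ACATGT, whose first bases are 10 apart.

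Cdkn1a, upstream start, chr17:29090729-29091028, plus strand: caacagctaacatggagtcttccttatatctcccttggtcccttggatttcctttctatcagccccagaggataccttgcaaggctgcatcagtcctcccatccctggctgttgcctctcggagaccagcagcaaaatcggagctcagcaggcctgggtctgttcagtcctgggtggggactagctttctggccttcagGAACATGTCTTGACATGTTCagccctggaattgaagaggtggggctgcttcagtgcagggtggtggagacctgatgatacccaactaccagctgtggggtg

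The capitals begin 51 bases before that start. Of the 32851 promoter windows, 4 hold 2 copies of ACATGT at this spacing (0.0122%; the core reads the same on both strands), and the other windows of the inhibitor genes do not. The second window of *Cdkn1a*, at 29093519 to 29093818, holds none.

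The ratio of *Cdkn2a* to *Cdkn1a* did not overlap between the genotypes, as *Cdkn2a* alone did not. Levels of different genes were compared as normalized counts per kilobase (kb) of annotated exon, all exons joined (1172 bases for *Cdkn2a*, 3553 for *Cdkn1a*). The size of the ratio depends on these lengths, whereas the order of the embryos by it does not. *Cdkn2a* stood at 2.90 to 3.74 times the *Cdkn1a* level per kb in the *Rreb1*-/- embryos and at 0.875 to 1.98 times in the *Rreb1*+/+ embryos. The median ratio was 3.22 in mutants and 1.12 in wild types. The lowest mutant ratio thus exceeded the highest wild-type ratio. This ratio contains *Cdkn2a*, the called gene, and is not a separate result. It was formed after the single values had been seen and was not tested.

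**Figure D4:**
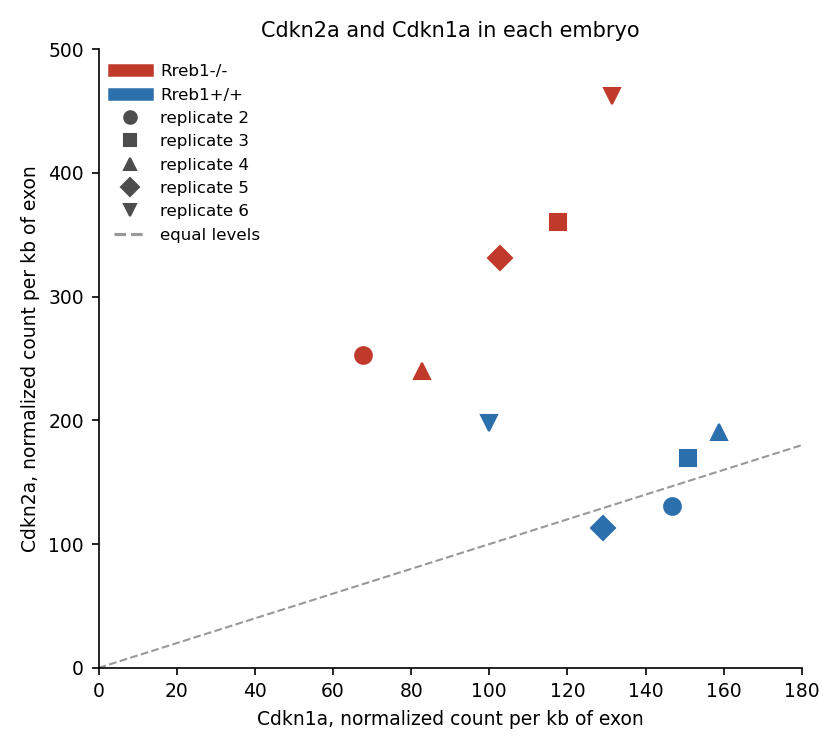
Level of *Cdkn2a* (y axis) against that of *Cdkn1a* (x axis), both in normalized counts per kb of exon, one point per embryo, *Rreb1*-/- in red and *Rreb1*+/+ in blue, with shapes for the replicate number and a dashed line where both genes are equal. All 5 *Rreb1*-/- embryos lie above the line, at ratios of 2.90 to 3.74, and the *Rreb1*+/+ embryos lie on both sides of it, at 0.875 to 1.98. Where the line falls among the points depends on the exon lengths used.

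*Cdkn1b* encodes p27Kip1, which is held at low levels in dividing cells mainly by degradation of the protein. Its RNA was abundant, with 1536, 1559, 2135, 1544 and 1933 normalized counts in *Rreb1*-/- and 1195, 1637, 1763, 1270 and 1463 in *Rreb1*+/+ embryos. The mutant was the higher in 4 of 5 same-numbered pairs, all but replicate 3, and the groups overlapped. The log2 fold change was 0.25 (SE 0.13, 95% interval −0.04 to 0.54, limma adjusted p = 0.346). The 11 genes for ubiquitin ligase parts that act on CIP/KIP proteins held no called gene in either direction, with a median log2 fold change of 0.00. Among them, *Skp2*, the F-box protein that recognises p27Kip1, averaged 4821 ± 287 in *Rreb1*-/- and 4796 ± 192 in *Rreb1*+/+ embryos. *Cks1b*, its cofactor, averaged 5389 ± 283 in mutants and 5058 ± 227 in wild types (SD, n = 5 each). Both limma adjusted p-values missed the threshold, at 0.965 for *Skp2* and 0.413 for *Cks1b*.

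*Cdkn1c* encodes p57Kip2 and is expressed from the maternal copy of an imprinted domain on chromosome 7 (143458339 to 143461050, minus strand, GRCm38). An annotated antisense gene overlaps it, with the same limit on the reads as for *Cdkn1a*. It had 2379, 1337, 1232, 2267 and 4527 normalized counts in *Rreb1*-/- and 2462, 1705, 1848, 2361 and 4235 in *Rreb1*+/+ embryos. In both genotypes replicate 6 was highest and replicates 3 and 4 were lowest. The mean of replicates 5 and 6 was 2.06 times that of replicates 2 to 4 in *Rreb1*-/- embryos and 1.65 times in *Rreb1*+/+ embryos. The log2 fold change between genotypes was −0.19 (SE 0.35, 95% interval −0.95 to 0.57, limma adjusted p = 0.823).

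The list for that imprinted domain also takes in *Igf2* and *H19* of the neighbouring domain. Of its 11 genes, 10 were tested and none was called by limma with all embryos. Their median log2 fold change was −0.20, and 9 of the 10 were negative, as were 8252 of all 15603 tested genes. In replicates 2 to 4 alone *Slc22a18* of that list, named after its values were seen, was lower, where 1.41% of all genes were. *Kcnq1ot1*, the paternal RNA that silences *Cdkn1c* and its neighbours in cis, averaged 614 ± 74.1 in *Rreb1*-/- and 720 ± 136 in *Rreb1*+/+ embryos (limma adjusted p = 0.420). *Phlda2*, a maternally expressed gene that restrains placental growth, averaged 5308 ± 1759 in *Rreb1*-/- and 6342 ± 1687 in *Rreb1*+/+ embryos (adjusted p = 0.605). In the neighbouring domain, *Igf2*, a growth factor expressed from the paternal copy, averaged 37548 ± 12168 in *Rreb1*-/- and 43153 ± 7784 in *Rreb1*+/+ embryos (adjusted p = 0.576). *H19*, the maternal RNA beside it, averaged 201467 ± 25883 in *Rreb1*-/- and 219964 ± 15664 in *Rreb1*+/+ embryos (adjusted p = 0.497; SD, n = 5 each, limma for all). Markers of trophoblast, a tissue in which *Cdkn1c* is known to be high, summed to 6222 to 11608 in *Rreb1*-/- and 6810 to 13323 in *Rreb1*+/+ embryos, with 0 of 7 tested markers called and 7 of 7 below 0. Their part in the *Cdkn1c* values was not tested.

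*Cdkn3* encodes the CDK-associated phosphatase, whose RNA rises in dividing cells as those of mitotic genes do. It had 289, 312, 258, 231 and 250 normalized counts in *Rreb1*-/- and 338, 234, 202, 229 and 208 in *Rreb1*+/+ embryos. Wild-type replicate 2 was the highest of all embryos and stood apart from its group. Without it every mutant except replicate 5 was above every wild type. The log2 fold change was 0.16 (SE 0.15, 95% interval −0.17 to 0.50, limma adjusted p = 0.616) with all embryos and 0.29 without that one, not called in either case. The promoter window of *Cdkn3* holds TTTGAA, the core of the cell cycle homology region, on either strand, as did that of *Cdkn2b* and 17.9% of all windows.

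By level, the inhibitor genes spanned a wide range. In *Rreb1*-/- embryos *Cdkn1c* was highest with 1152 ± 650 normalized counts per kb of exon, followed by *Cdkn1b* (383 ± 60.8), *Cdkn2a* (329 ± 89.8), *Cdkn2d* (283 ± 42.5), *Cdkn3* (113 ± 13.5), *Cdkn1a* (100 ± 25.7), *Cdkn2b* (19.5 ± 8.51) and *Cdkn2c* (19.5 ± 5.80). In *Rreb1*+/+ embryos the order was *Cdkn1c* (1237 ± 496), *Cdkn1b* (322 ± 52.6), *Cdkn2d* (267 ± 29.1), *Cdkn2a* (160 ± 37.1), *Cdkn1a* (137 ± 23.5), *Cdkn3* (102 ± 23.2), *Cdkn2c* (20.7 ± 5.41) and *Cdkn2b* (16.2 ± 4.06; SD, n = 5 each). Per kb of annotated exon *Cdkn2a* ranked 3 in mutants and 4 in wild types. In mutants its embryos overlapped those of both neighbours in that order, *Cdkn1b* and *Cdkn2d*. In wild types they lay below all *Cdkn2d* values (113 to 198 against 241 to 315) and overlapped those of *Cdkn1a* and *Cdkn3*. The genes of the lowest pair, *Cdkn2b* and *Cdkn2c*, overlapped each other in both genotypes. The lengths are those of all annotated exons joined, which for *Cdkn2a* counts both first exons. For *Cdkn1a* (3553 bases) and *Cdkn3* (2371 bases) they also take in exons that only some transcripts hold. Ranks, ratios and shares per kb between genes depend on this choice of length, and no other length was tried.

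Summed per kb, the INK4 genes made up 23.8 to 37.8% of the CIP/KIP and INK4 total in *Rreb1*-/- embryos (median 29.2%) and 18.3 to 25.5% in *Rreb1*+/+ embryos (median 20.5%). *Cdkn2a* alone was 45.3 to 53.2% of the INK4 sum in *Rreb1*-/- and 27.9 to 38.3% in *Rreb1*+/+ embryos. The CIP/KIP sum itself was 1116 to 2776 per kb in mutants and 1347 to 2498 in wild types, of which *Cdkn1c* gave 52.3 to 80.0% in mutants and 62.1 to 83.1% in wild types. These shares contain *Cdkn2a*, the called gene, and are not a separate result. The *Cdkn2a* count sums the p16Ink4a and p19Arf transcripts, and p19Arf is not an INK4 protein. How much of the INK4 share is RNA for INK4 proteins therefore cannot be told.

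The kinases and cyclins that the inhibitors bind were next compared. Of 12 genes for G1 cyclins, their kinases and activating phosphatases, 0 were called by limma, with a median log2 fold change of −0.08. DESeq2, which called 5.06% of all genes higher and 2.71% lower, called *Cdk6* and *Cdc25a* lower (adjusted p = 0.0199 and 0.00500). *Cdk4*, an INK4 target, averaged 23497 ± 1967 in *Rreb1*-/- and 23752 ± 1150 in *Rreb1*+/+ embryos (limma adjusted p = 0.915). *Cdk6*, the other, averaged 673 ± 120 in *Rreb1*-/- and 982 ± 194 in *Rreb1*+/+ embryos, with a log2 fold change of −0.54 (adjusted p = 0.0938). *Cdk2*, the main CIP/KIP target, averaged 3583 ± 190 in *Rreb1*-/- and 3900 ± 35.6 in *Rreb1*+/+ embryos. The *Cdk2* values of the genotypes did not overlap, as was the case for 6.7% of all tested genes in either direction, and its log2 fold change of −0.12 had a limma adjusted p of 0.217.

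The D-type cyclins, which INK4 proteins displace from their kinases, and the E-type cyclins, which pair with CDK2, were not called. *Ccnd1* averaged 3851 ± 569 in *Rreb1*-/- and 4384 ± 364 in *Rreb1*+/+ embryos, and *Ccne1* 5790 ± 808 in mutants and 6213 ± 319 in wild types (SD, n = 5 each). The log2 fold changes of *Ccnd2*, *Ccnd3* and *Ccne2* were −0.09, 0.05 and −0.07. Of 13 pocket protein and E2F genes 0 were called by limma, with a median of −0.04, while DESeq2 called *E2f2* lower and *E2f5* higher (adjusted p = 0.00788 and 0.0216). *Rb1*, for the retinoblastoma protein, averaged 283 ± 56.6 in *Rreb1*-/- and 282 ± 58.3 in *Rreb1*+/+ embryos. Of 20 S phase and mitotic cyclin-CDK genes 0 were called, with a median of 0.06.

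The regulators of the Ink4a-Arf locus were compared as a list of repressors and one of activators. Polycomb proteins are the best known repressors of *Cdkn2a*. Of 19 repressor genes 0 were called by limma and 14 lay below 0, with a median log2 fold change of −0.13 against −0.02 over all tested genes. *Ezh2*, the methyltransferase of Polycomb repressive complex 2, averaged 7124 ± 574 in *Rreb1*-/- and 7809 ± 368 in *Rreb1*+/+ embryos (log2 fold change −0.13, limma adjusted p = 0.292). *Bmi1*, a Polycomb repressive complex 1 protein whose loss derepresses *Cdkn2a* in mice, averaged 1527 ± 164 in *Rreb1*-/- and 1687 ± 99.2 in *Rreb1*+/+ embryos (−0.15, adjusted p = 0.373). Of 6 activator genes 0 were called, with a median of −0.06. Of 11 SMAD, FOXO and MYC genes known to act on inhibitor genes 0 were called either, with a median of −0.06.

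With the replicate number as a block some genes of these lists passed, and they are named here after their values were seen. Over all genes 4.59% were then called higher and 2.28% lower. In the pocket protein and E2F list *E2f2* and *E2f4* were lower (limma adjusted p = 0.0203 and 0.0289). Among the repressors *Kdm2b*, a histone demethylase of variant Polycomb complexes, was lower (0.0296, and again with the Y-linked covariate), and *Cbx7*, a Polycomb reader protein, was higher (0.0385). *Cdc25a*, a phosphatase that activates CDK2, was lower (0.0375).

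The p53 axis was the remaining list with genes called by limma, apart from the cell type markers. Of 16 tested genes 4 were higher in *Rreb1*-/- embryos and 0 lower by limma, where 3.11% of all tested genes were higher and 1.15% lower, and the median log2 fold change was 0.28. All 4 are known p53 targets. *Trp53inp1*, which promotes p53 activity in stressed cells, had 2430, 2441, 2064, 1571 and 1804 normalized counts in *Rreb1*-/- and 1148, 1067, 842, 978 and 843 in *Rreb1*+/+ embryos. The genotypes did not overlap, as in 4.24% of all tested genes with the mutants above, at a log2 fold change of 1.07 (SE 0.14, limma adjusted p = 0.00122).

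*Ccng1*, cyclin G1, averaged 3314 ± 459 in *Rreb1*-/- and 2027 ± 226 in *Rreb1*+/+ embryos (log2 fold change 0.71, limma adjusted p = 0.00304). *Eda2r*, a receptor for ectodysplasin, averaged 215 ± 48.1 in *Rreb1*-/- and 73.7 ± 36.5 in *Rreb1*+/+ embryos (1.65, adjusted p = 0.0140). The gene lies on the X chromosome, and sex was nearly confounded with genotype. With the Y-linked covariate its log2 fold change was 1.55 (limma adjusted p = 0.209). *Zmat3*, an RNA-binding protein, averaged 2348 ± 363 in *Rreb1*-/- and 1619 ± 118 in *Rreb1*+/+ embryos (0.52, adjusted p = 0.0198; SD, n = 5 each). In all 3 every mutant embryo was above every wild-type embryo, as in 4.24% of all tested genes. *Zmat3* was not called when mutant replicate 2, mutant replicate 4, wild-type replicate 4 or wild-type replicate 6 was left out (adjusted p from 0.0512 to 0.0563). Under the Y-linked covariate, where 0.532% of all genes were higher, 1 of the 4 genes, *Trp53inp1*, was called. In replicates 5 and 6 alone, where 0.529% were higher, 0 were called. In replicates 2 to 4 alone, where 2.18% were higher, all 4 were called and *Pmaip1* of the list as well. DESeq2, with 5.06% of all genes higher, called the 4 and *Btg2*. *Phlda3* was also higher with the replicate block (limma adjusted p = 0.0137). *Pmaip1*, *Btg2* and *Phlda3* were named after their values were seen.

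*Trp53* and *Mdm2*, whose proteins stand between p19Arf and these targets, were not called. Their RNA levels do not measure those proteins. *Trp53* averaged 5425 ± 776 in *Rreb1*-/- and 6092 ± 456 in *Rreb1*+/+ embryos (log2 fold change −0.18, limma adjusted p = 0.373). *Mdm2*, the ligase that p19Arf binds and itself a p53 target, averaged 2364 ± 82.9 in *Rreb1*-/- and 2289 ± 118 in *Rreb1*+/+ embryos (0.05, adjusted p = 0.700). *Cdkn1a*, the inhibitor among the p53 targets, was not higher in the same embryos, and no mutant exceeded the wild-type median.

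**Figure D5:**
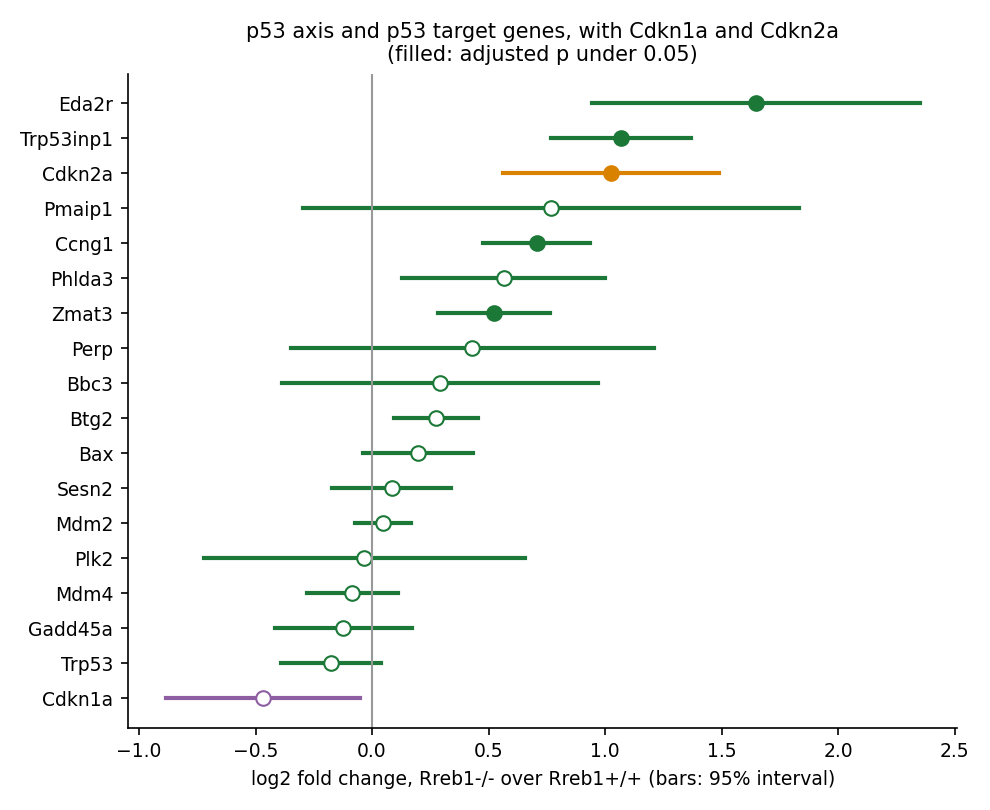
Log2 fold change, *Rreb1*-/- over *Rreb1*+/+ (x axis, bars for the 95% interval of limma, 5 embryos per genotype), of the 16 tested p53 axis genes in green with *Cdkn2a* in orange and *Cdkn1a* in purple, ordered by value; filled points have an adjusted p under 0.05. *Eda2r* (1.65), *Trp53inp1* (1.07), *Cdkn2a* (1.02), *Ccng1* (0.71) and *Zmat3* (0.52) are filled on the right, and *Cdkn1a* is lowest at −0.47.

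*Afp*, a plasma protein gene of the visceral endoderm, averaged 5248 ± 2285 in mutants and 12203 ± 1872 in wild types (SD, n = 5 each; log2 fold change −1.32, limma adjusted p = 0.0157), the 1 marker of 6 called in its list, and the only marker called by limma with all embryos and no block. That list summed to 208159 to 298651 in mutants and 267777 to 298555 in wild types. The 6 primitive blood markers had a median log2 fold change of −1.63, with 6 of 6 below 0 and 0 of 6 called by limma with all embryos. They summed to 384 to 3060 in *Rreb1*-/- and 1223 to 12416 in *Rreb1*+/+ embryos. With the replicate block *Hbb-bh1*, an embryonic globin gene, and *Gata1*, an erythroid transcription factor gene, were lower (limma adjusted p = 0.00342 and 0.0352). In replicates 2 to 4 alone 4 of 4 tested blood markers were lower, where 1.41% of all genes were, and in replicates 5 and 6 alone 2 of 6 were, where 0.134% of all genes were. Epiblast markers summed to 16533 to 50755 in *Rreb1*-/- and 20985 to 51279 in *Rreb1*+/+ embryos, with 0 of 6 called by limma. In replicates 2 to 4 alone *Fgf5* of that list and *Eomes* of the primitive streak list were higher (limma adjusted p = 0.0174 and 0.00239). Parietal endoderm markers summed to 36228 to 78110 in mutants and 37526 to 49060 in wild types, and maternal decidua markers to 362 to 614 in mutants and 335 to 565 in wild types, with none called by limma in either list. *Pgr* of the decidua list was higher with the replicate block (adjusted p = 0.0206) and by DESeq2 (0.0107). The markers called under other fits were named after their values were seen. The part of the marker lists in the *Cdkn2a* difference was not tested.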

How the data were processed

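Per the study's methods, paired reads from polyadenylated RNA of single E7.5 embryos (stranded kit) were aligned by STAR in a 2-pass mode, assigned to genes by HTSeq and scaled by DESeq. The deposited signal is therefore a read count divided by the authors' size factor for that embryo. No genome build, gene model or strand setting is given in the sources used here. Reads were recovered from the step of each column (100% of values within 0.1 read of a whole number). They were used for depth, the reads quoted per gene, edgeR, DESeq2 and the TMM factors.

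Genotypes were compared with limma 3.58.1 (R 4.3.3, variance trend). The procedure was run on simulated counts of independent embryos without replicate sets or a sex difference, so that run does not cover either of these. Alternatives were edgeR 4.0.16, DESeq2 1.42.0, TMM factors, quantile normalization, pseudocounts of 0.5 and 5, no filter or a mean of at least 50, the replicate number as a block, a Y-linked covariate, replicates 2 to 4 or 5 and 6 alone, and each embryo left out. For genes other than the inhibitors they were added after the values were seen. Same-numbered embryos of both genotypes deviated together (correlations 0.253 to 0.459, 5 pairs). The replicate block takes the numbers as pairs, which no label states. For 3 of 10 embryos the best match had the same number, and the others matched another number, within replicates 2 to 4 or within 5 and 6. The matches thus follow these sets of replicates and do not show that equal numbers are pairs.

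Named were all 8 inhibitor genes, set partners and regulators, and up to 4 called members of each list. Members and lists were chosen with earlier results of these data known. Positions and exon lengths are from GENCODE M21 and promoters from RefSeq (both GRCm38), which may differ from the authors' models.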

Additional observations from a re-analysis of the deposited data

Results flagged for a closer look

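*Cdkn3* in *Rreb1*+/+ replicate 2 stood at 337.7 normalized counts, far from the other wild-type embryos (202 to 234). The gap to the nearest of them was 0.767 of the range of the group, above the critical value of 0.71 for 5 embryos. Of 16 groups examined (8 genes in 2 genotypes) this was the only one, and chance gives such a gap in about 1 group in 20.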

How the results depend on the processing

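*Cdkn2a* was higher in *Rreb1*-/- embryos under all 22 alternatives, and called in 19. The exceptions were the Y-linked covariate (log2 fold change 0.72, limma adjusted p = 0.315), replicates 2 to 4 alone (0.79, 0.0963) and replicates 5 and 6 alone (1.38, 0.144), each leaving 0 inhibitor genes called higher; the smaller sets hold fewer embryos, and otherwise the cause was not tested. With 1 embryo left out it ranged from 0.89 to 1.13 (adjusted p 0.0199 to 0.0491). With the replicate block it was 1.02 (adjusted p = 0.0123), and the block changed no other call among the inhibitor genes. The other 7 genes were not called under any alternative. Signs turned for *Cdkn1a* (0.033 in replicates 5 and 6 alone), *Cdkn1c* (0.072 with the Y-linked covariate, 0.018 in replicates 5 and 6 alone, −0.47 to 0.017 with 1 embryo left out), *Cdkn2b* (−0.013 to 0.48 with 1 left out), *Cdkn2c* (0.10 with the covariate, 0.088 in replicates 2 to 4 alone, −0.23 to 0.042 with 1 left out) and *Cdkn2d* (−0.14 with the covariate, −0.0063 to 0.14 with 1 left out). Over all genes 665 were called, against 1213 by DESeq2, 1072 with the replicate block, 107 with the covariate, 104 in replicates 5 and 6 alone and 443 to 642 with 1 embryo left out (443 without *Rreb1*+/+ replicate 3). *Cdkn2b* was not tested at a mean of at least 50. With 9 to 36 reads, it is the gene for which depth limits the comparison most.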
